A study of Mus musculus with 12 samples.

Results

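The genes *Sox2ot* (ENSMUSG00000105265) and *Sox2* (ENSMUSG00000074637) are the 2 members described here, out of 55487 genes counted in the mouse lens. They were taken by name, and the pair was chosen by the measured values of *Sox2ot* itself, which was higher than wild-type in the *Trpm3* knockout and lower in the *Trpm3* mutants. The contrasts of *Sox2ot* with wild-type are therefore given as a description and were not tested, and the tests below are of *Sox2*, and of *Sox2ot* between both mutants. Lens RNA from mice aged 7 days (P7) was sequenced in 12 libraries, 3 for each of 4 genotypes, and the labels describe every library as pooled from lenses of both sexes, 4 male and 4 female. Wild-type mice carried no *Trpm3* mutation. In the knockout (*Trpm3*-KO) the gene had been disrupted by homologous recombination. In the mutants the p.I65M substitution, made by CRISPR/Cas9, was present on 1 allele (heterozygous, *Trpm3*-I/M) or on both (homozygous, *Trpm3*-M/M). All lines were kept on the B6J background, and the alleles were carried by the whole animal. TRPM3 is a cation channel, and the study asked how its cataract-causing substitution, as opposed to its loss, alters lens gene expression.

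SOX2 is a transcription factor of the SOX family, which binds DNA through an HMG box and acts with partner proteins. In the lens it works with PAX6 when the lens placode forms and crystallin genes are first switched on, and its close relative SOX1 is active in the fiber cells that follow. *Sox2ot*, the *Sox2* overlapping transcript, is a long non-coding RNA gene on the same strand that holds *Sox2* within an intron, and it is best known from neural tissue and stem cells.

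In the GRCm38 annotation *Sox2ot* covers chr3:34104270-34682619 on the forward strand, a span of 578.35 kb with 11594 exonic bases over 18 transcripts, 16 of them spliced. *Sox2* covers chr3:34650405-34652461 on the same strand as a single exon of 2057 bases with a coding sequence of 319 codons. The *Sox2* start lies 546.135 kb downstream of the outermost *Sox2ot* start. Of the *Sox2ot* transcripts, 9 span *Sox2* and 0 have an exon over it, so *Sox2* is intronic to *Sox2ot*. The genes share 0 stretches of 31 bases in their transcripts, so no spliced read of that length is common to both. The sequences that define the pair are shown from GENCODE transcripts of this build. First comes the exon stretch shared by 11 of the 16 spliced *Sox2ot* transcripts (chr3:34675669-34675854, forward strand), chosen as the stretch that the most annotated transcripts share, and next the first exon of the transcript Sox2ot-211 (chr3:34560381-34560569, forward strand), which has 5 exons and 2970 bases and runs across *Sox2*. The third is the beginning of the *Sox2* coding sequence (chr3:34650416-34650505, forward strand), with the start codon in capitals.

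Sox2ot shared exon stretch: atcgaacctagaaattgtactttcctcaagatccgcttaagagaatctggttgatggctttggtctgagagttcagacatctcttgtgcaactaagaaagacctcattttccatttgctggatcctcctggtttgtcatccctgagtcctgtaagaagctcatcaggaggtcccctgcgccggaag
Sox2ot-211 first exon: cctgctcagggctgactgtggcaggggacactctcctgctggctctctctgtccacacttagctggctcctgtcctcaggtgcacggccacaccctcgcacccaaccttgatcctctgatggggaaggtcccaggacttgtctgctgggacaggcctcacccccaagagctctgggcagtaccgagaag
Sox2 coding start: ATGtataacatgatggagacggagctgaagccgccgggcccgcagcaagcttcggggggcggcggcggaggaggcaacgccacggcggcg

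The *Sox2* promoter is shown because *Sox2* fell in both mutants. It is taken from RefSeq on GRCm38.p6, as the 250 bases before the RefSeq start (chr3:34649745-34649994, forward strand), and the capitals mark the matches to the motifs searched on both strands. The first motif was ACAAAG, a core that SOX proteins are known to bind, and the next was its variant with the letters ACAATG. The promoter elements searched were the CCAAT box and the TATA box, read as TATAAA, and the marked matches do not overlap.

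Sox2 promoter: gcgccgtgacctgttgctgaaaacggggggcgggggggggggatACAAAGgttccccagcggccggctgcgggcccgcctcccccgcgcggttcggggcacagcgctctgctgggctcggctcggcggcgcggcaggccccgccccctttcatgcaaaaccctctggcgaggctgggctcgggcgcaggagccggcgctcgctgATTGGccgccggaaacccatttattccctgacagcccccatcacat

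The SOX core ACAAAG occurs at 206 bases before the start, and the CCAAT box was found on the reverse strand, 46 bases before it. Of 32851 mouse promoters of this length, 16.5% hold that SOX core and 33.8% hold the CCAAT box. The variant core and the TATA box have 0 matches here, and 10.7% and 12.4% of promoters hold them. The G and C content of the *Sox2* promoter is 72.0%, against a median of 52.4% over these promoters.

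**Figure D1:**
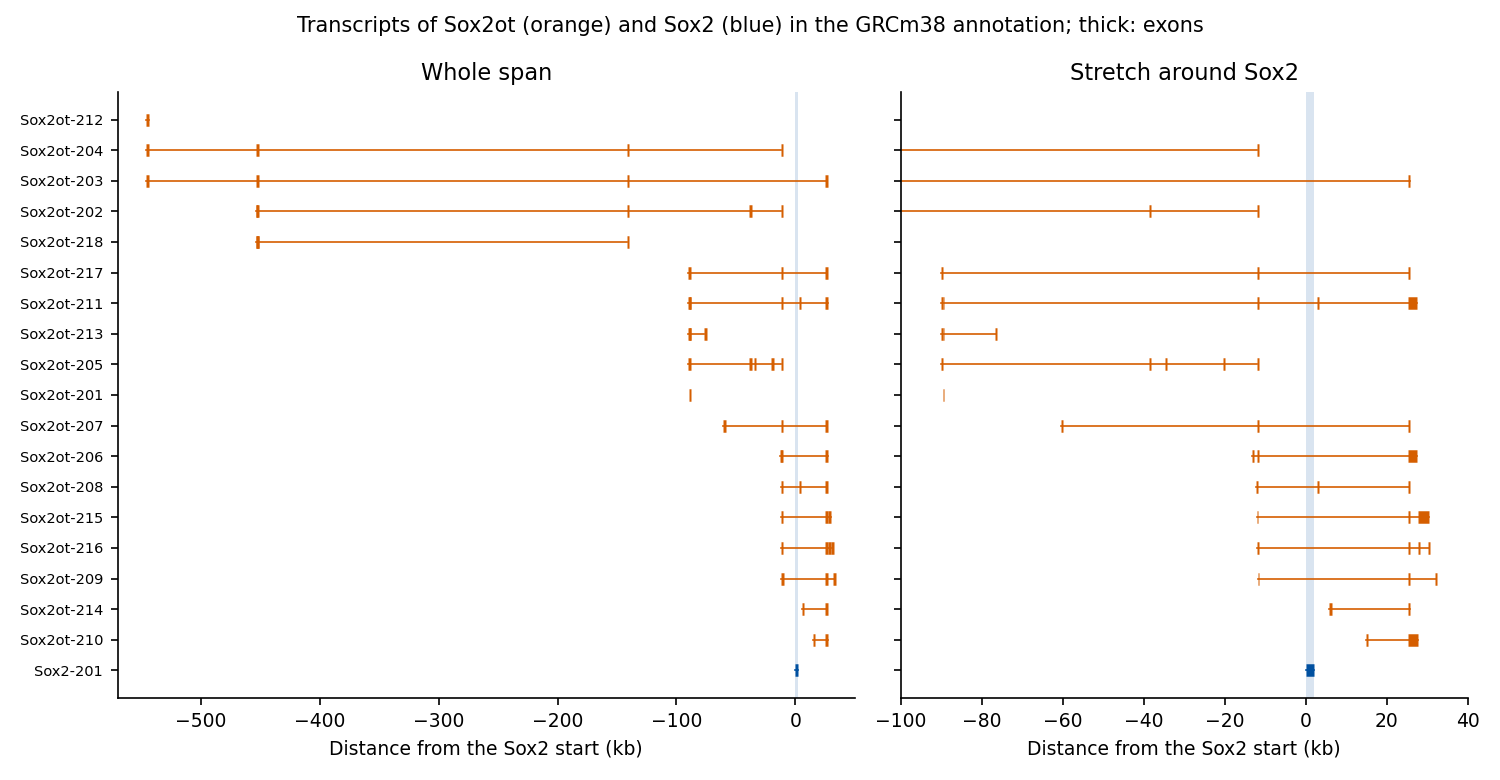
Annotated transcripts of *Sox2ot* (orange, 18 transcripts) and *Sox2* (blue), drawn in kb from the *Sox2* start, with exons as thick marks and introns as lines. The left panel covers the whole span of 578.35 kb and the right panel the stretch around *Sox2*. The lines of 9 *Sox2ot* transcripts cross the shaded *Sox2* exon and 0 exons of *Sox2ot* fall on it.

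The libraries held 56162182 to 82090262 reads counted on genes. Levels are given as CPM, which is each count scaled to the total of its library, after TMM factors, which set the bulk of genes to a ratio of 1 between libraries. These factors ran from 0.828 to 0.905 in wild-type, 0.881 to 0.935 in knockout, 1.00 to 1.01 in heterozygous and 1.22 to 1.27 in homozygous lenses. *Trpm3* itself was measured at 268.5 ± 17.3 CPM (SD, n = 3) in wild-type and 95.3 ± 5.02 CPM (SD, n = 3) in knockout lenses, with no overlap. It stood at 386.6 ± 23.4 CPM in heterozygous and 475.2 ± 8.01 CPM in homozygous lenses (SD, n = 3 each). Both lay above wild-type with no overlap, by log2 differences of 0.53 and 0.82, under 2-fold. In these pooled lenses, fewer cells of a type and less RNA per cell cannot be told apart. Replicates are pools for which the labels name no animals, so p-values measure the spread between pools. Heterozygous replicate 3 stood apart from its label: it held 5.01 counts of *Xist*, the RNA of the inactive X chromosome in females, where the other 11 libraries held 2182 to 16856. The heterozygous fold changes of the pair are therefore also given without it, as is any list call that changed without it.

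*Sox2ot* was read at every genotype, and the libraries formed 4 separate steps. In wild-type lenses it was counted 883, 773 and 724 times, or 17.4, 16.2 and 14.4 CPM. In knockout lenses it was counted 7049, 7032 and 7003 times, or 132, 127 and 132 CPM. The knockout libraries were thus the highest of all and lay close to each other. In heterozygous lenses the counts of 576, 698 and 510 correspond to 7.77, 8.48 and 7.35 CPM, and in homozygous lenses counts of 266, 314 and 282 correspond to 3.33, 3.41 and 3.18 CPM. The order of the means was knockout (130.2 ± 2.58 CPM), wild-type (16.0 ± 1.52), heterozygous (7.87 ± 0.572) and homozygous (3.30 ± 0.113; SD, n = 3 each), with no overlap between any neighbours in this order.

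Relative to wild-type, the fitted log2 difference of *Sox2ot* was 3.03 (standard error 0.069) in knockout lenses, which is 8.14-fold. It was −1.02 (standard error 0.070) in heterozygous lenses, a level 2.03-fold lower, and −2.27 (standard error 0.075) in homozygous lenses, a level 4.83-fold lower. Without heterozygous replicate 3 the heterozygous difference was −0.98. These are the values the pair was chosen on. A gene was called changed at FC ≥ 2 and FDR ≤ 0.05, and by that definition 0.234% of the 8984 tested genes were higher in knockout lenses (21 genes). The *Sox2ot* difference ranked 5 from the top there, after *Rpl15-ps2* (7.07), *Aox4* (5.80), *Rpl15-ps6* (5.15) and *Gm3375* (4.67), and it was followed by *Cck* (2.54, standard error 1.45). The genes *Rpl15-ps2*, *Rpl15-ps6* and *Gm3375* are pseudogenes, and reads from near-identical copies make their counts uncertain. *Aox4*, *Rpl15-ps6* and *Gm3375* passed the filter of CPM ≥ 5 in 3 libraries only through knockout libraries, where they were high. The rank of *Sox2ot* is therefore a description. Of 118 tested non-coding genes, 2 were called higher in knockout lenses and 1 lower, where 0.234% and 0.334% of all tested genes were. *Sox2ot* itself is 1 of the 2 called higher.

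*Sox2* separated the mutants from the other genotypes but not the knockout from wild-type. In wild-type lenses it was counted 946, 898 and 1176 times, or 18.6, 18.9 and 23.3 CPM. In knockout lenses it was counted 1112, 1277 and 1079 times, or 20.8, 23.1 and 20.3 CPM. These 6 libraries overlapped. In heterozygous lenses the counts of 736, 809 and 604 correspond to 9.92, 9.83 and 8.71 CPM, and in homozygous lenses the counts of 364, 429 and 365 correspond to 4.55, 4.65 and 4.12 CPM. Every mutant library lay below every wild-type and knockout library, and every homozygous library lay below every heterozygous library. The order of the means was knockout (21.4 ± 1.51 CPM), wild-type (20.3 ± 2.65), heterozygous (9.49 ± 0.677) and homozygous (4.44 ± 0.283; SD, n = 3 each), in which the leading pair did not differ beyond its spread.

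**Figure D2:**
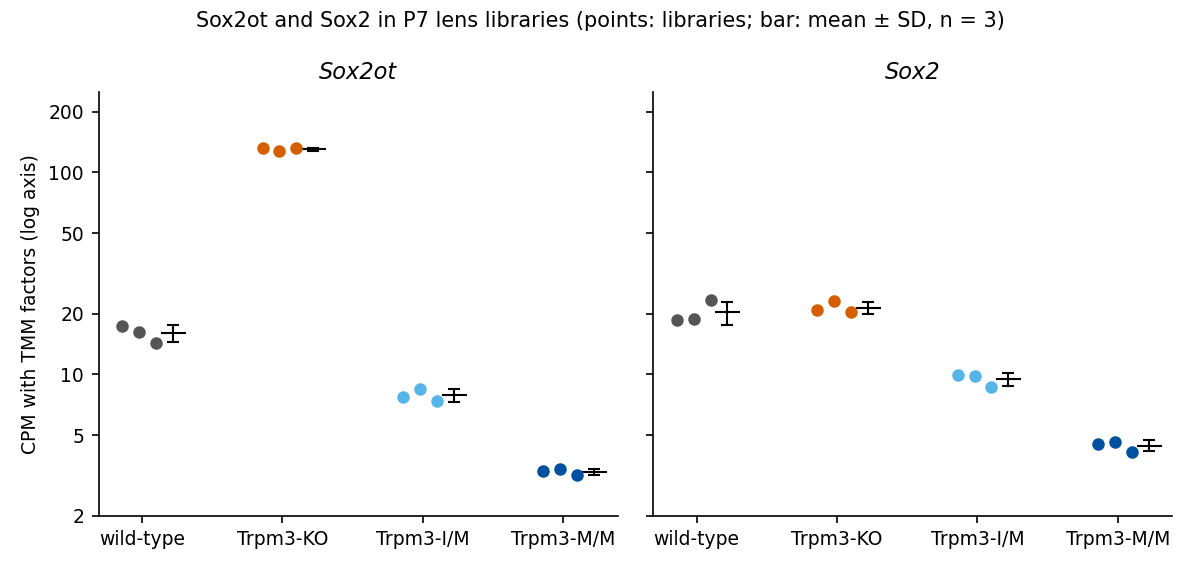
CPM with TMM factors of *Sox2ot* (left) and *Sox2* (right) in each of the 12 libraries by genotype, on a log axis, with the mean and SD of 3 libraries as the bar beside the points. *Sox2ot* reaches 127 to 132 CPM in knockout lenses, whereas *Sox2* stays at 20.3 to 23.1 CPM there, and both genes step down from heterozygous to homozygous lenses.

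In knockout lenses *Sox2* was not called. It differed from wild-type by a log2 value of 0.08 (standard error 0.087, adjusted p = 0.705 by the quasi-likelihood test of edgeR after Benjamini–Hochberg adjustment), with a 95% interval from −0.11 to 0.27, or 0.926-fold to 1.20-fold. This interval does not reach a change of 2-fold in either direction. Of all tested genes 0.568% were called in this comparison.

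In heterozygous lenses *Sox2* fell by 1.09 on the log2 scale (standard error 0.090, adjusted p = 1.03e-06 in edgeR's quasi-likelihood test, Benjamini–Hochberg adjusted), a level 2.13-fold lower, with a 95% interval from −1.29 to −0.90. It was 1 of 67 genes called lower in this genotype, 0.746% of those tested. Leaving out heterozygous replicate 3 gave −1.04, which was still called, and leaving out wild-type replicate 3, the highest wild-type library for *Sox2*, gave −0.98, which was not. Scaling by library size only also ended the call, at −0.90.

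In homozygous lenses *Sox2* fell by 2.19 on the log2 scale (standard error 0.096, adjusted p = 4.96e-10 by the quasi-likelihood test of edgeR after Benjamini–Hochberg adjustment), a level 4.56-fold lower, with a 95% interval from −2.40 to −1.98. Lower expression was called for 2.53% of tested genes in this comparison (227 genes), and *Sox2* ranked 33 from the lowest fold change. *Sox2ot* ranked 29 in the same comparison.

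Both genes were also lower in homozygous lenses than in heterozygous lenses. This comparison did not enter the choice of the pair, but the same mutant values of *Sox2ot*, set against wild-type, did. *Sox2* fell by 1.10 on the log2 scale between the mutants (standard error 0.097, adjusted p = 1.08e-06 in edgeR's quasi-likelihood test, Benjamini–Hochberg adjusted), with a 95% interval from −1.31 to −0.89. *Sox2ot* fell by 1.25 (standard error 0.076, adjusted p = 3.80e-08 from the same edgeR test and adjustment), with a 95% interval from −1.42 to −1.09. Both were thus among the 92 genes called lower in the homozygous lenses, 1.02% of those tested. Without heterozygous replicate 3 the differences were −1.15 for *Sox2* and −1.30 for *Sox2ot*. With library size as the only scaling they were −0.79 and −0.94, and neither was called.

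The number of *Sox2ot* counts per *Sox2* count in the same library does not depend on the scaling. In wild-type lenses this ratio was 0.933, 0.861 and 0.616. In heterozygous lenses it was 0.783, 0.863 and 0.844, and in homozygous lenses 0.731, 0.732 and 0.773. The ratios of both mutants lay within the wild-type range while the level of each gene fell. In knockout lenses the ratio was 6.34, 5.51 and 6.49, above every other library. The means were 0.803 ± 0.167 in wild-type, 0.830 ± 0.0420 in heterozygous, 0.745 ± 0.0238 in homozygous and 6.11 ± 0.530 in knockout lenses (SD, n = 3 each). On the log2 scale the mean ratio differed from wild-type by 2.95 in knockout lenses (7.71-fold), by 0.07 in heterozygous and by −0.09 in homozygous lenses, values that contain the *Sox2ot* contrasts and were not tested. Between the mutants the log2 ratio was lower in homozygous lenses by a difference of −0.15, with no overlap. A two-sided exact permutation test gave p = 0.1, and groups of 3 cannot give a smaller one. This test uses the mutant values of *Sox2ot* that entered the choice of the pair.

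**Figure D3:**
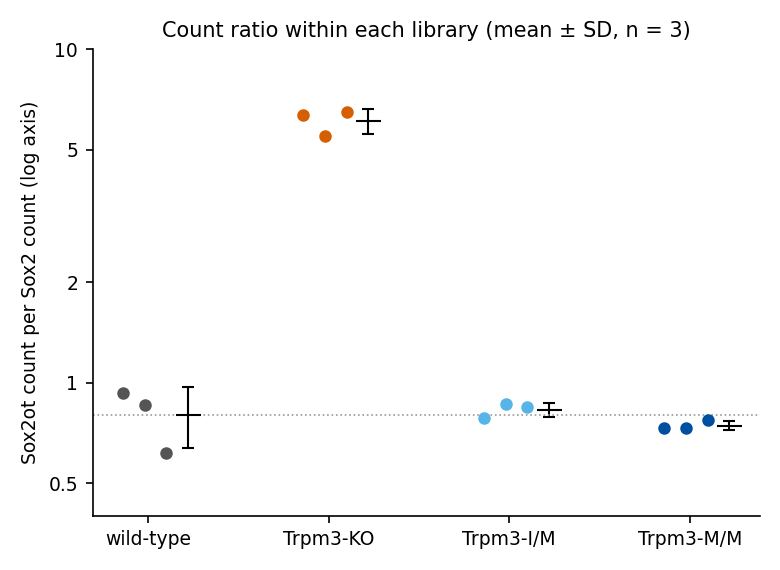
*Sox2ot* counts per *Sox2* count in each library, on a log axis, with the mean and SD of 3 libraries per genotype and the wild-type mean as a dotted line. The 3 knockout libraries lie between 5.51 and 6.49, and the 9 others lie between 0.616 and 0.933.

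Levels of different genes were compared per exon length. Per kb of annotated exon, *Sox2* stood at 9.85 CPM in wild-type lenses and *Sox2ot* at 1.38 CPM. In knockout lenses the values were 10.4 for *Sox2* and 11.2 for *Sox2ot*, so that on this scale both genes were read at a similar level there. In heterozygous lenses they were 4.61 and 0.679, and in homozygous lenses 2.16 and 0.285. The *Sox2ot* length is the union of exons of 18 transcripts that no single transcript holds, so its level per kb depends on that length. The counts are per gene, so which of these transcripts was read was not measured.

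The genes whose profile over the 12 libraries was most like each member were taken by the root mean square difference of log2 CPM after centring each gene on its own mean. For *Sox2* the nearest were *St8sia2* (0.147), *Sowaha* (0.150), *Cpz* (0.156), *Ngef* (0.186) and *Emilin1* (0.196), against a median of 0.932 over all tested genes. *St8sia2* encodes a sialyltransferase that builds polysialic acid, *Cpz* a carboxypeptidase and *Emilin1* a glycoprotein of elastic fibers. *St8sia2* went from 40.4 ± 2.26 CPM in wild-type and 40.4 ± 1.07 in knockout lenses to 20.4 ± 2.88 in heterozygous and 7.87 ± 0.497 in homozygous lenses (SD, n = 3 each).

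For *Sox2ot* the nearest genes were *Ccbe1* (0.684), *Gm3375* (0.697), *Megf11* (0.851), *Rpl15-ps6* (0.905) and *Pcdh17* (1.01), against a median of 1.96. No tested gene came as near to *Sox2ot* by this distance as each of the named genes came to *Sox2*. The distance grows with the range of a gene. After centring, *Sox2ot* ran from −2.25 to 3.11 and *Sox2* from −1.49 to 1.00, and the pair was chosen on the *Sox2ot* values. *Ccbe1*, which encodes a secreted protein of lymphatic vessel growth, had 3.98 ± 0.955 CPM in wild-type, 9.24 ± 0.708 in knockout, 1.19 ± 0.384 in heterozygous and 0.454 ± 0.0472 in homozygous lenses (SD, n = 3 each). *Ccbe1*, *Gm3375* and *Rpl15-ps6* passed the filter only through knockout libraries, where they were high. *Pcdh17*, a protocadherin gene, was read at 12.1 ± 0.937 CPM in wild-type, 36.6 ± 4.29 in knockout lenses, 8.60 ± 2.25 in heterozygous and 6.25 ± 1.17 in homozygous lenses (SD, n = 3 each). *Sox2* ranked 29 among the genes nearest to *Sox2ot* (1.29), and *Sox2ot* ranked 8255 among those nearest to *Sox2* at the same distance. With Pearson correlation in place of this distance, 1 of the 5 genes was shared for *Sox2* (*Cpz*) and 0 for *Sox2ot*. The highest correlation with any tested gene was 0.995 for *Sox2ot* and 0.994 for *Sox2*. The likeness is a description of 12 libraries that share 4 genotypes.

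**Figure D4:**
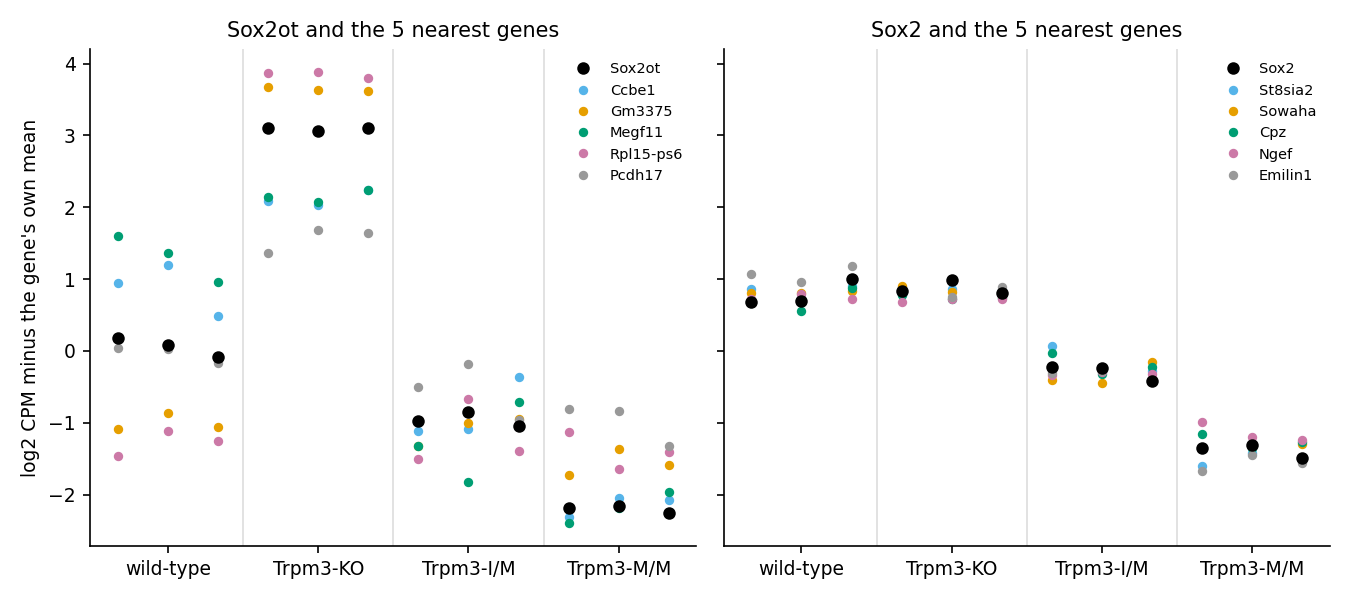
log2 CPM of *Sox2ot* (left) and *Sox2* (right), each in black, and of the 5 genes nearest to each, after subtracting each gene's own mean over the 12 libraries, which are ordered by genotype. The genes near *Sox2* lie within 0.196 of it on average (root mean square), whereas those near *Sox2ot* lie 0.684 to 1.01 away.

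Around the pair, the annotation places 46 further genes within 1 Mb of *Sox2ot*, and 3 of these passed the expression filter of CPM ≥ 5 in 3 libraries. They were *Ttc14*, *Fxr1* and *Dnajc19*. *Fxr1* encodes an RNA-binding protein related to FMRP, and *Dnajc19* a mitochondrial chaperone. In knockout lenses their log2 fold changes were 0.23, 0.07 and −0.26, and in homozygous lenses they were 0.14, −0.12 and −0.23. None of the 3 was called in any of the 4 comparisons by edgeR's quasi-likelihood test. Its background of calls was 0.568% for knockout lenses, 3.33% for heterozygous lenses, 8.95% for homozygous and 4.7% between the mutants. At an adjusted p of at most 0.05 with no fold threshold, the numbers were 0 of 3 in knockout lenses, 0 in heterozygous lenses, 1 in homozygous and 2 between the mutants. At an unadjusted p under 0.05 they were 1, 1, 2 and 3 in the same order, and DESeq2 called 0 in each comparison. Shares of all tested genes at these looser thresholds are not given here. Such counts, here and for the lists below, are therefore not read as an excess.

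Inside the *Sox2ot* span lie 13 other annotated genes, of which 7 had 0 counts in every library. *Gm42692*, a transcribed stretch of the annotation class TEC that starts at −7.141 kb from the *Sox2* start (chr3:34643264-34646096, forward strand), was counted 22 to 46 times in wild-type, 35 to 50 times in knockout lenses, 6 to 21 times in heterozygous and 12 to 20 times in homozygous libraries. *Gm42693*, of the same class on the reverse strand, at 13.254 kb from the *Sox2* start (chr3:34663659-34664289), was counted 9 to 21, 12 to 27, 8 to 16 and 9 times. In CPM, *Gm42692* had means of 0.692 ± 0.237, 0.766 ± 0.148, 0.204 ± 0.104 and 0.183 ± 0.0387 in the same order of genotypes (SD, n = 3 each). These genes lay under the filter and were not tested. *Gm20515*, *Gm42695* and *Gm42205* held at most 3 counts per library, and *RF01953* was counted in 1 wild-type library. Strand use in the counting is not given in the sources used here, so reads of *Sox2ot* introns and of genes within them cannot be told apart with certainty, and the same holds for unspliced *Sox2ot* RNA over *Sox2*.

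Of the 18 other SOX family genes listed, 5 passed the filter. In knockout lenses 0 of the 5 were called by edgeR's quasi-likelihood test (2 at an unadjusted p under 0.05, 0 by DESeq2). Over all tested genes the share called there was 0.568%. In each comparison with or between the mutants the same gene, *Sox9*, was called higher and 0 were called lower. It passed the filter only through the 3 homozygous libraries, where it was high, so that count of 1 is not read against the 3.33%, 8.95% and 4.7% of all tested genes. *Sox1*, the relative that acts in fibers, was the most abundant at 257.0 ± 26.0 CPM (SD, n = 3) in wild-type lenses. Its log2 fold changes were −0.02 in knockout lenses, −0.29 in heterozygous and −0.64 in homozygous lenses (adjusted p = 4.02e-06 in the last, in edgeR's quasi-likelihood test, Benjamini–Hochberg adjusted), under the 2-fold threshold. *Sox9*, a regulator of cartilage, glia and eye progenitors, went from 0.334, 0.336 and 0.159 CPM in wild-type to 1.48, 1.41 and 1.63 in heterozygous and 5.08, 7.06 and 5.80 in homozygous libraries, with log2 fold changes of 2.44 (standard error 0.24) and 4.43 (standard error 0.22). Without any 1 homozygous library it no longer passed the filter and was not tested. In knockout lenses it stood at 0.118 ± 0.0445 CPM (SD, n = 3) and was not called (adjusted p = 0.129 by the quasi-likelihood test of edgeR after Benjamini–Hochberg adjustment).

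*Sox4* had log2 fold changes of −0.59 in knockout lenses (adjusted p = 0.00293 in edgeR's quasi-likelihood test, Benjamini–Hochberg adjusted), −0.11 in heterozygous and 0.02 in homozygous lenses. Those of *Sox12* were −0.08, −0.08 and −0.20, and those of *Sox13* 0.05, −0.18 and −0.20. The median over the 5 genes was −0.08 in knockout lenses, −0.11 in heterozygous and −0.20 in homozygous lenses, against 0.00 over all tested genes in each. The other 13 SOX genes had genotype means of at most 4.33 CPM, reached by *Sox10* in homozygous lenses, and were not tested. *Sox10*, a gene of neural crest and glia that is named after its values were seen, was counted 2, 0 and 0 times in wild-type and 315, 419 and 400 times in homozygous libraries. At a filter of CPM ≥ 1, where 11 of the 18 were tested, *Sox5* was called lower, with log2 fold changes of −2.00 in heterozygous and −1.55 in homozygous lenses. At the same filter *Sox11* (1.91 and 3.68) and *Sox18* (4.29 and 6.12) were called higher in both, and *Sox10* in homozygous lenses (8.12). *Sox10*, *Sox11* and *Sox18* had wild-type means of 0.0131, 0.241 and 0.0198 CPM. They passed this filter only through mutant libraries, where they were high. *Sox5* passed it only through wild-type and knockout libraries, where it was high. These calls are therefore given as a description.

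Of 13 listed lens transcription factor genes that work with SOX2, 12 were tested. In knockout lenses 0 were called by edgeR's quasi-likelihood test (2 at an unadjusted p under 0.05, 0 by DESeq2). Over all tested genes the share called there was 0.568%, and the median log2 fold change of the 12 was 0.01. In heterozygous lenses the same test called 0 (9 at an unadjusted p under 0.05, 0 by DESeq2), where 3.33% of all tested genes were called. The median was −0.31, and 8 of the 12 passed an adjusted p of 0.05 without the fold threshold. The 3.33% holds with the fold threshold, so the 8 are not read against it. In homozygous lenses 2 of the 12 were called lower, *Foxe3* and *Meis2*, where 2.53% of all tested genes were, and the median was −0.47 (0.00 over all tested genes). *Foxe3*, the forkhead gene that keeps lens epithelial cells dividing, was read at 105, 90.8 and 76.7 CPM in wild-type and 18.3, 21.2 and 17.9 CPM in homozygous libraries, a log2 fold change of −2.24, near that of *Sox2*. Its value in heterozygous lenses was −0.96, under the threshold, and that in knockout lenses was −0.19. *Meis2*, a homeobox gene of the early lens, had −1.14 in homozygous lenses. *Pax6*, the partner of SOX2 in the lens placode, had 0.00 in knockout lenses, −0.40 in heterozygous and −0.62 in homozygous lenses, and *Pou2f1*, *Zeb2* and *Maf* had −0.25, −0.66 and −0.75 in homozygous lenses.

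Of 15 listed SOX2 target genes, 10 were tested, among them 6 gamma-crystallin genes that encode structural proteins of the fiber cells. In knockout lenses 0 of the 10 were called by edgeR's quasi-likelihood test (5 at an unadjusted p under 0.05, 0 by DESeq2). Over all tested genes the share called there was 0.568%. In homozygous lenses 5 of the 10 were called lower, against 2.53% of all tested genes. All were gamma-crystallin genes, from −1.05 for *Cryge* to −1.37 for *Crygb*, with *Crygd* at −0.98. With library size only, the calls among the 10 in either direction went from 7 to 2. In the main fit 2 genes were called higher, against 6.42% of all tested genes. Those were *Nes*, the intermediate filament gene of neural progenitors, at 1.46 and *Lin28b*, a regulator of let-7 microRNAs, at 1.14. *Lin28b* was also called higher in heterozygous lenses at 1.01, a call lost without heterozygous replicate 3 and without wild-type replicate 2. Its means were 2.21, 2.32, 4.48 and 4.90 CPM in wild-type, knockout, heterozygous and homozygous lenses, so it passed the filter only through the mutants, where it was high. The median over the 10 genes was 0.04 in knockout lenses, −0.33 in heterozygous and −1.01 in homozygous lenses. Gamma-crystallin genes are near-identical copies of each other, and reads shared between them make the count of each one uncertain. The pluripotency genes *Nanog*, *Pou5f1*, *Utf1* and *Fgf4*, classical targets of SOX2 in stem cells, had genotype means of at most 0.00417 CPM.

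**Figure D5:**
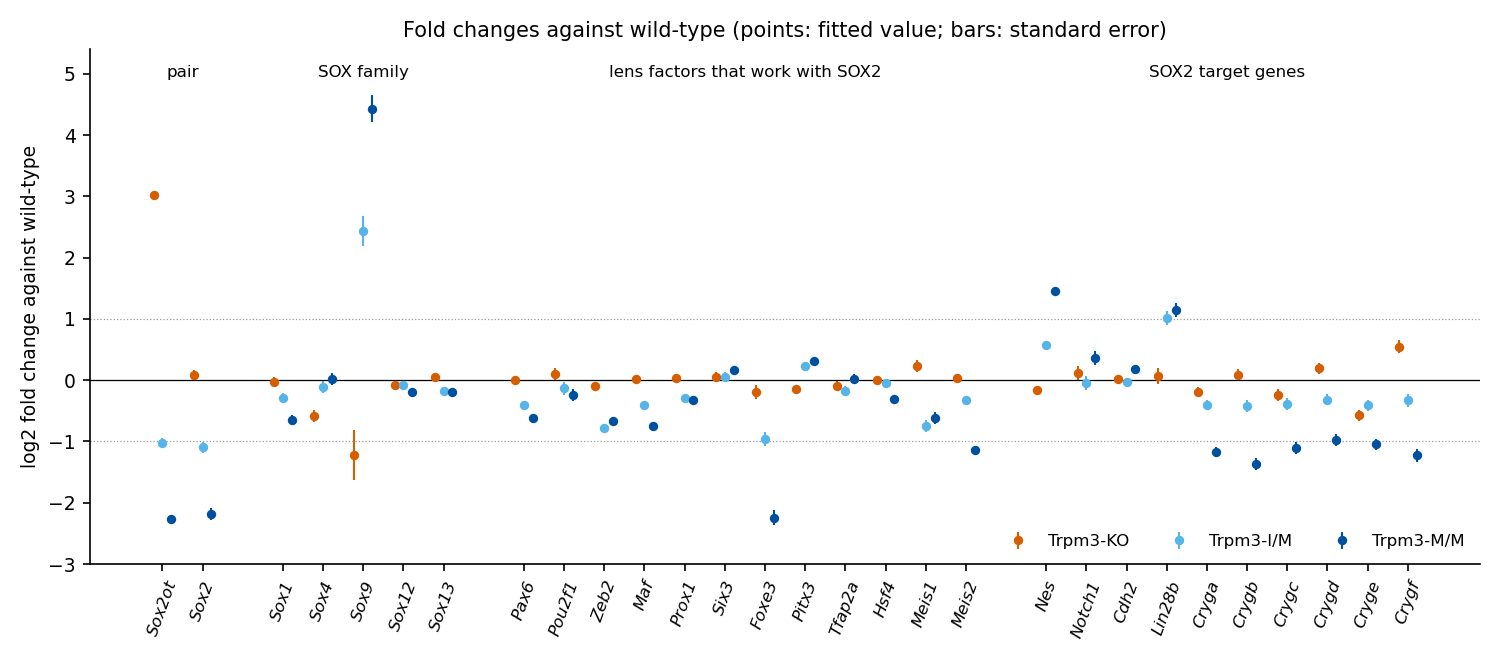
Fitted log2 fold changes against wild-type, with standard errors as bars, for the pair, the 5 tested SOX family genes, 12 lens factors that work with SOX2 and 10 SOX2 target genes in knockout (orange), heterozygous (light blue) and homozygous (dark blue) lenses. Dotted lines mark a 2-fold change. *Sox2ot* stands at 3.03 in knockout lenses, where the 27 genes of the 3 lists and *Sox2* have values from −1.22 to 0.55.

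Among 33 other long non-coding RNAs listed, 31 were in the table and 14 passed the filter. In knockout lenses 0 of the 14 were called by edgeR's quasi-likelihood test (4 at an unadjusted p under 0.05, 0 by DESeq2). Over all tested genes the share called there was 0.568%. The median of the 14 was 0.10, with *Rmst*, a SOX2-binding RNA, at −0.09 and *Six3os1*, the antisense neighbour of the eye gene *Six3*, at 0.03. In homozygous lenses *Rmst* (−1.07) and *Peg13* (−1.15) were called lower, and *H19* (3.36), *Neat1* (1.76), *Ftx* (1.29) and *Meg3* (1.16) higher, 6 of 14 where 8.95% of all tested genes were called. In heterozygous lenses *H19* was called, at 1.98, as 1 of 14 where 3.33% of all tested genes were called. The median over the 14 was −0.34 in heterozygous and −0.27 in homozygous lenses. Among all 118 tested non-coding genes, 14 were called higher and 14 lower in homozygous lenses, where 6.42% and 2.53% of all tested genes were. *Sox2ot*, chosen on its values, is 1 of the 14 called lower.

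The labelled tissue was checked against markers. Lens fiber and lens epithelium markers were read in every library. *Krt12* and *Kera* of the cornea and *Rpe65* of the pigment epithelium were at 0 counts in wild-type. Other genes of their lists were read there, with sums of 0.826 to 1.62 CPM for cornea and conjunctiva and 6.09 to 6.78 for pigmented epithelia. The retinal lists were also read in wild-type, as given below. In the mutants some of these lists differed from wild-type beside the fall of the pair. With TMM factors, the summed level of 15 lens fiber markers was 241221 to 261539 CPM in wild-type, 232740 to 255102 in knockout lenses, 201359 to 209761 in heterozygous and 160868 to 170586 in homozygous lenses. That of 12 lens epithelium markers, a layer that expresses *Sox2*, was 990 to 1035, 970 to 1004, 955 to 1058 and 873 to 932 CPM in the same order. Of the 12, 2 were called lower in homozygous lenses, where 2.53% of all tested genes were, and 1 between the mutants (1.02%). In heterozygous lenses 1 was called higher and 1 lower, where 2.58% and 0.746% of all tested genes were. Of the 15 fiber markers, 1 was called lower in homozygous lenses and 2 between the mutants. With library size only, the epithelium sum turned direction, from 820 to 937 CPM in wild-type to 1067 to 1180 in homozygous lenses, and the fiber sum was 216568 to 218333 and 205027 to 208921 CPM.

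Lists written for cells outside the lens follow. The 10 markers of Müller glia and astrocytes, cells that also express *Sox2*, summed to 1666 to 1745 CPM in wild-type lenses. Their sum was 1810 to 1848 in knockout, 2002 to 2086 in heterozygous and 1708 to 1781 in homozygous lenses, and 5 of the 10 passed the filter. Of these 5, 1 was called higher in heterozygous lenses, 2 in homozygous lenses and 1 between the mutants, and 0 were called lower. Over all tested genes, 2.58%, 6.42% and 3.67% were called higher in these comparisons. With library size only the glial sum was 1434 to 1567 CPM in wild-type and 2132 to 2270 in homozygous lenses. With TMM factors the wild-type glial range lay above that of the lens epithelium markers (990 to 1035 CPM). The other retinal lists below had far lower sums. Whether the glial markers were read from lens cells was not tested, so their sum is not read as an amount of glia. The 14 markers of other retinal neurons summed to 12.6 to 14.9, 13.0 to 13.9, 13.3 to 13.8 and 23.5 to 24.6 CPM, with *Vsx1* at 0 counts in all but the homozygous libraries. Photoreceptor markers (12 genes) summed to 2.73 to 3.31, 2.30 to 2.95, 2.64 to 2.70 and 3.36 to 7.03 CPM. Those of pigmented epithelia (9 genes) summed to 6.09 to 6.78, 6.04 to 7.03, 6.26 to 7.04 and 3.10 to 3.67 CPM, with *Rpe65* at 0 in every genotype. Those of cornea and conjunctiva (8 genes) summed to 0.826 to 1.62, 1.05 to 1.50, 10.1 to 12.7 and 10.1 to 16.1 CPM. In knockout lenses, where *Sox2ot* differed most, the ranges of the photoreceptor, other neuron, pigment, cornea and lens marker sums overlapped those of wild-type. The range of the glial sum did not, and 0 of the 5 tested glial markers were called, where 0.568% of all tested genes were. The part of these cells in the fall of the pair was not tested.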

How the data were processed

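Lens RNA from 12 pooled libraries was poly-A selected and sequenced. The authors aligned and quantified the reads with DRAGEN against the mm10 build and an Ensembl annotation, and deposited estimated counts per gene and library, not normalized and not pooled. The deposited table held 55774 entries for 55487 gene identifiers, and repeated entries held equal values and were used once. A deposited table of the authors' own edgeR comparisons (counts, CPM, fold changes and p-values) was not used. Strand use in the counting is not given in the sources used here.

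Whole counts had been assumed when the tests were chosen. The estimated counts, 88.4% of them whole, were rounded to whole numbers. The 8984 genes that reached 5 CPM in 3 or more libraries entered 1 quasi-likelihood fit of all 12 libraries in edgeR 4.0.16 (R 4.3.3) with TMM factors and genotype as the only factor. The filter and the thresholds (2-fold, adjusted p of at most 0.05, Benjamini–Hochberg over all tested genes) are those of the study's methods. Standard errors follow from the fold change divided by the root of the F statistic. Alternatives were library size only, TMM without crystallin genes, upper-quartile factors, DESeq2 1.42.0, other filters, fits on 2 genotypes at a time, a replicate block, 12 fits that each omit a library, and Pearson correlation for likeness. The procedure was tested on simulated data. For the likeness, log2 CPM carried a prior count of 2. Ratios used the unrounded counts. Coordinates come from GENCODE on GRCm38, the assembly of mm10, matched by identifier (55227 of 55487), and the promoter from RefSeq, whose table holds 0 entries for *Sox2ot*.

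The members and the gene lists were chosen with earlier results of these data known. Named genes are *Sox2ot*, *Sox2* and *Trpm3*, every tested SOX family and neighbouring gene, every called gene of the other lists with at most 4 others of each in list order, the 5 genes nearest in profile to each member, and counted genes inside the *Sox2ot* span. The genes ranked beside *Sox2ot* in the knockout, *Aox4*, *Sox5*, *Sox10*, *Xist*, *Crygd* and the pluripotency genes were named after their values were seen.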

Additional observations from a re-analysis of the deposited data

How the results depend on the processing

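The direction of *Sox2* and *Sox2ot* reversed in 0 of the alternatives tried. Scaling by library size only shifted the median log2 value, taken over all genes tested, to 0.20 in heterozygous lenses, 0.50 in homozygous lenses and 0.31 between the mutants. *Sox2* then stood at −0.90 in heterozygous lenses and −0.79 between the mutants, and *Sox2ot* at −0.94 between the mutants, each under the 2-fold threshold. Relative to that median the 3 values were −1.10, −1.10 and −1.25. Leaving out 1 library at a time, *Sox2* ran from −1.16 to −0.98 in heterozygous lenses, where the call was lost without wild-type replicate 3 (−0.98), from −2.25 to −2.08 in homozygous lenses, from 0.02 to 0.19 in knockout lenses and from −1.15 to −1.03 between the mutants, where *Sox2ot* ran from −1.30 to −1.19. Over its alternatives the adjusted p of *Sox2* in knockout lenses ran from 0.233 to 0.952.

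Same-numbered libraries of different genotypes deviated together at r = −0.264 to 0.149 (18 pairs), and other-numbered ones at −0.251 to 0.297 (36 pairs). No pairing by number was seen in these values, and a shared batch was not tested. With the replicate number as a block, *Sox2* had 0.08, −1.10 and −2.19 in knockout, heterozygous and homozygous lenses and −1.10 between the mutants, *Sox2ot* had −1.25, and no call of the pair changed.

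The SOX family count of 1 called gene in heterozygous lenses, in homozygous lenses and between the mutants became 4, 5 and 5 at CPM of at least 1 and 6, 7 and 8 with no filter, and 0 without any 1 homozygous library, when *Sox9* no longer passed the filter. With no filter 1 was called in knockout lenses. Among genes near *Sox2ot*, 3 in heterozygous lenses and 4 in homozygous lenses were called with no filter. How many of these genes entered that fit is not given here. Over all 32266 genes in it, 1215 and 3457 were called. The lens factor count of 0 in heterozygous lenses became 1 without wild-type replicate 3 or heterozygous replicate 1. The SOX2 target count of 1 in heterozygous lenses became 0 without wild-type replicate 2 or heterozygous replicate 3, and that of 0 between the mutants 2 without homozygous replicate 1 and 1 with no filter. The other list counts moved by over 1.5 times with library size only (lens factors 1 and 0, targets 2 and 1, in homozygous lenses and between the mutants), and for long non-coding RNAs in heterozygous lenses (2 with either lower filter). Over all genes, the calls in knockout, heterozygous and homozygous lenses and between the mutants, 51, 299, 804 and 422, became 103, 663, 1634 and 1009 at CPM of at least 1 and 343, 1215, 3457 and 2337 with no filter. The genes tested numbered 8984 in the main fit, 12639 at CPM of at least 1 and 32266 with no filter. The calls were 1354 in homozygous lenses with library size only and 178 in heterozygous lenses with only the genotypes compared. Without homozygous replicate 1, 2 or 3 they were 198 in heterozygous lenses in each case, 611, 527 and 547 in homozygous lenses and 247, 181 and 190 between the mutants. In knockout lenses they ran from 36 to 56 without 1 library.

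Limits of depth were small for the pair, which was counted 266 times or more in every library. The counts are per gene, so transcripts of *Sox2ot* were not resolved, and 3 pools per genotype, 1 of them with *Xist* at 5.01 counts, limit the precision.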
